A study of Mus musculus with 21 samples.

Results

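The forkhead (Fox) genes of the mouse count table were taken as every gene whose symbol is Fox followed by one letter from a to s and a digit, which gave 46 of 24421 genes, among them the antisense transcripts Foxd2os and Foxl2os. Their RNA levels, and the GATA4 and open-chromatin peaks in the gene body or within 50 kb of it, were described in ventricular apex tissue and cells of mouse embryos at E12.5, counted in days of embryonic development. RNA was counted in 2 endothelial (EC) libraries, from 60000 cells each sorted on a Tie2Cre-activated Rosa26fsTRAP reporter. It was also counted in 3 libraries that the labels give only as E12.5 cardiomyocytes (CM). A sort is recorded for the EC libraries alone, and the column names of EC and CM follow different patterns. RNA differences between EC and CM therefore cannot be told apart from differences in preparation or run. GATA4 bioChIP pulls down GATA4 that carries a biotin tag, and here biotinylation was switched on by Tie2-Cre (3 libraries) or by Tnnt2-Cre (3 libraries), each from 15 to 20 pooled ventricles. ATAC-seq, which maps open chromatin with a transposase, was used on 2 libraries of 40000 Tie2Cre-labelled EC and on endothelial cells labelled by Cdh5(Pac)-CreERT2 with the Rosa26mTmG reporter, 20000 per library, from Gata4het (3 libraries) and Gata4ko (3 libraries) embryos. For the Cdh5 cells, pregnant mice had received 1 mg of tamoxifen by gavage at E9.5. Tie2-Cre also acts in blood lineages, and the RNA-seq holds no Gata4het or Gata4ko library, so the deletion was not checked on RNA. The labels do not tie replicates to different litters or dissections, and the p-values below therefore reflect only how these libraries vary.

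Forkhead proteins are transcription factors that share a winged-helix DNA-binding domain and are sorted into lettered subfamilies by its sequence. FOXC proteins, together with ETS factors, act at enhancers of vascular genes, FOXO proteins are held out of the nucleus when AKT phosphorylates them, and FOXP proteins act mostly as repressors that pair through a leucine zipper. In the embryonic heart Foxp1 is known for roles in both endocardium and myocardium, Foxc1 and Foxc2 for outflow tract and vessel formation, Foxo1 for vascular development, and Foxm1 for cell division.

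The libraries held 21682362 to 48393473 reads on genes. The 8 endothelial markers summed to 4955 to 5019 counts-per-million (CPM) in EC and 638 to 734 CPM in CM, and the 8 cardiomyocyte markers to 367 to 389 CPM in EC and 53090 to 58793 CPM in CM, so each group carried the defining markers of its label. The CM level of single endothelial markers was 5.58% to 22.2% of the EC level, with a median of 15.8%. In such bulk libraries, fewer cells of a type and less RNA per cell cannot be told apart. The part of these endothelial transcripts in the CM levels below was not tested.

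Of the 46 forkhead genes, 17 reached a mean of 1 CPM in EC or CM, and 21 had enough reads to be tested. Most of the tested genes were higher in EC: 14 were called higher, 1 lower and 6 neither, by edgeR's quasi-likelihood test at an adjusted p of 0.05. Over all 14851 genes tested, 37.5% were called higher in EC and 40.2% lower. The median log2 fold change (EC over CM) was 1.19 over the 21 tested forkhead genes and -0.06 over all genes tested. The remaining 25 forkhead genes were too low to test, and 7 of them had no read in any library. The plot of the 17 genes above 1 CPM shows every library.

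**Figure D1:**
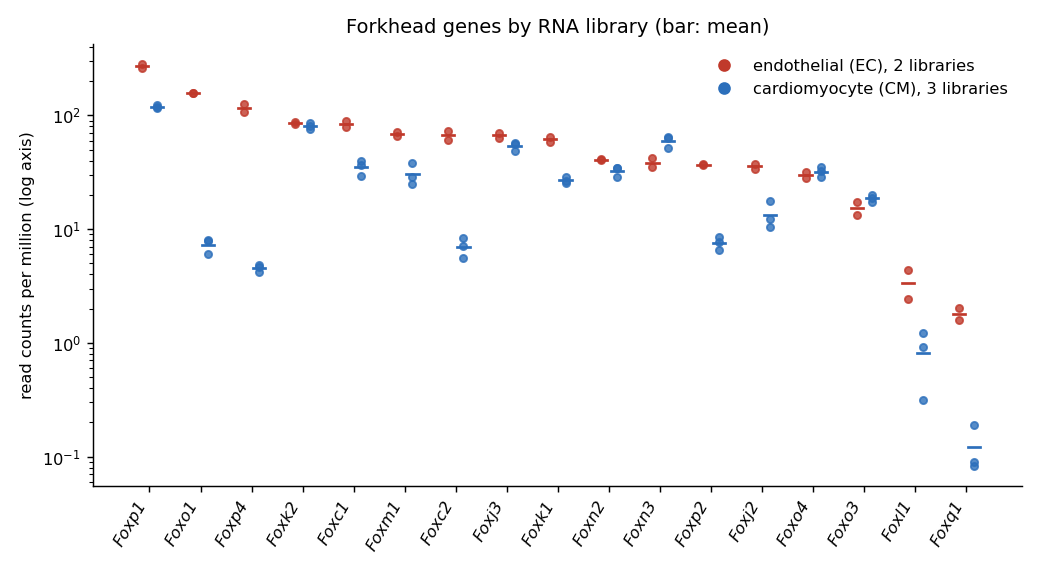
CPM on a log axis for the 17 forkhead genes with a mean of at least 1 CPM in EC or CM, with 1 point per library and a bar at each group's mean. Foxo1, Foxp4 and Foxc2 show wide gaps between the EC and CM points, while those of Foxk2 and Foxo4 overlap.

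**Figure D2:**
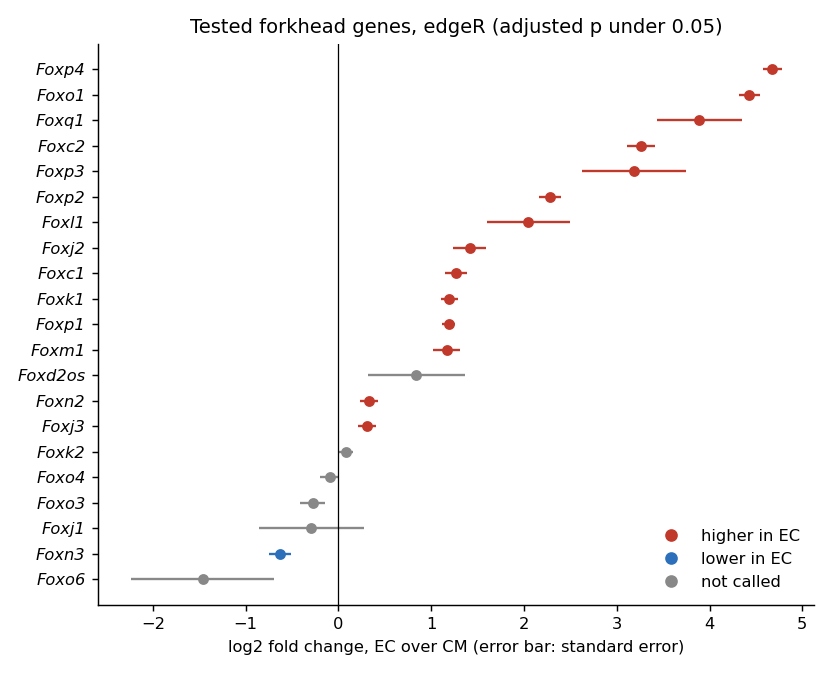
Log2 fold change of EC over CM with its standard error for the 21 tested forkhead genes, coloured by the edgeR call. Fold changes run from -1.46 (Foxo6, not called) to 4.68 (Foxp4), and Foxn3 is the single gene called lower in EC.

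All FOXP genes were called higher in EC, with log2 fold changes (EC over CM) of 1.19 to 4.68. Foxp1 (chr6:98925342-99435345, minus strand, mm10), the repressor with known roles in heart valves and myocardium, had 259 and 283 CPM in the EC libraries and 115, 119 and 122 CPM in the CM libraries. Both EC values lay above all CM values, and the log2 fold change was 1.19 (SE 0.07, adjusted p = 6.0e-08, edgeR's quasi-likelihood test). Foxp4 (chr17:47867133-47924632, minus strand), a paralog that pairs with Foxp1 and Foxp2, had 125 and 107 CPM in EC and 4.18, 4.64 and 4.80 CPM in CM. This gave the largest log2 fold change of the 21 tested forkhead genes, 4.68 (SE 0.10, adjusted p = 5.4e-11, edgeR's quasi-likelihood test), and the groups did not overlap. Its CM level, 3.91% of the EC level, was below the same percentage of each of the 8 endothelial markers. Foxp2 (chr6:14901349-15441977, plus strand), best known for its part in neural circuits for speech, had 37.1 and 36.7 CPM in EC and 7.76, 6.50 and 8.53 CPM in CM, a log2 fold change of 2.28 (SE 0.12). Foxp3, the factor that defines regulatory T cells, had only 0.851 and 0.679 CPM in EC and 0.062 to 0.135 CPM in CM, yet was called higher in EC (log2 fold change 3.19, SE 0.56, adjusted p = 0.00035, edgeR's quasi-likelihood test). Beside it, the 5 T cell markers summed to 0.181 to 0.213 CPM in EC and 0.071 to 0.112 CPM in CM, with Cd3e, Cd4 and Ctla4 at 0 reads in EC.

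RefSeq (GRCm38.p6, the mm10 assembly) lists 3 starts for Foxp1, and the 250 bases before each are shown because peaks in all 3 ATAC groups covered them and because they differ in make-up. The first lies upstream of the gene body of the count table and the others lie inside it. Capitals mark the letters ATAAACA or their complement on the other strand, TGTTTAT, a sequence that forkhead proteins can bind.
Foxp1 start 1, chr6:99520994-99521243, minus strand: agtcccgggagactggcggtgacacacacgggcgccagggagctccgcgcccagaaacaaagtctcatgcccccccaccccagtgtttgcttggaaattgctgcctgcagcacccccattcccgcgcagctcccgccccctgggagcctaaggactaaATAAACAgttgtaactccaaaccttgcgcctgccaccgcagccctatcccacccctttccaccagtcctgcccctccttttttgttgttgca
Foxp1 start 2, chr6:99266516-99266765, minus strand: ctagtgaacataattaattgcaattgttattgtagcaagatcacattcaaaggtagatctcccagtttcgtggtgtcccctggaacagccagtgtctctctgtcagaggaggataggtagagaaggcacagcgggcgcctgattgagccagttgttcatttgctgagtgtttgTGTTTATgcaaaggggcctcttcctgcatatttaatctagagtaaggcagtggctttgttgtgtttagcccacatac
Foxp1 start 3, chr6:99028299-99028548, minus strand: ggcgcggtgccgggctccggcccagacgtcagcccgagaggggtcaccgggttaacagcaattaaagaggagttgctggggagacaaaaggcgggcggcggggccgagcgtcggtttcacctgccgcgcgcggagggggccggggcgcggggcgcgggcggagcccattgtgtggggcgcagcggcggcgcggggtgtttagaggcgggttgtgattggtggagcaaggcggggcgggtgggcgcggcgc
The sequences hold 11, 3 and 34 CpG dinucleotides, against a median of 16.5 over the 34 forkhead promoters listed and 6 over all 32851 promoters of the table. The match lies 92 bases before the first start and 77 bases before the second, and the last has none. All 3 sequences were covered by a peak in both Tie2Cre EC libraries and in the 3 Gata4ko libraries. In the 3 Gata4het libraries the first was covered in 2 and the others in 3. No GATA4 library had a peak on any of them.

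For Foxp4 the single RefSeq promoter is shown as that of the forkhead gene with the largest EC excess. It has no capitals because none of the searched letters occur in it, and it holds 27 CpG.
Foxp4, chr17:47924633-47924882, minus strand: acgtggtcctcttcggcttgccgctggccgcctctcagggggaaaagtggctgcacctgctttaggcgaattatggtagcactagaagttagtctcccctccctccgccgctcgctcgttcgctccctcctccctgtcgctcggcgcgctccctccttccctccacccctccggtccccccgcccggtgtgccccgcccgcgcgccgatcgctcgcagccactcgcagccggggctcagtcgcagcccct
It was open in both Tie2Cre EC libraries and in all 3 Gata4het and all 3 Gata4ko libraries, and no GATA4 library had a peak on it. The 2 RefSeq promoters of Foxp3 were the reverse case: they hold 2 and 1 GATA letters (AGATAA or TGATAA, either strand) and no library of any kind had a peak there.

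Foxo1 was the single FOXO gene called higher in EC. Foxo1 (chr3:52268337-52350109, plus strand), the FOXO protein needed for embryonic vessel growth, had 156 and 157 CPM in EC and 6.02, 8.05 and 7.81 CPM in CM. The groups were far apart, 4.43 on the log2 scale (SE 0.11; edgeR's quasi-likelihood test, adjusted p = 1.3e-10). Its CM level was 4.66% of the EC level, again below each endothelial marker. Foxo4 had 31.5 and 28.3 CPM in EC and 29.0, 35.0 and 32.1 CPM in CM, which overlapped (log2 fold change -0.10, SE 0.11, adjusted p = 0.426, edgeR's quasi-likelihood test). Foxo3, a FOXO factor tied to stress resistance, had 17.3 and 13.3 CPM in EC and 17.5, 18.7 and 19.8 CPM in CM. The difference of -0.28 on the log2 scale (SE 0.13; edgeR's quasi-likelihood test, adjusted p = 0.073) was not called, although without EC replicate 1 it became -0.50 with an adjusted p of 0.010 in the same test. Foxo6 had 0 and 0.770 CPM in EC and 0.916, 0.918 and 1.10 CPM in CM, so its fold change of -1.46 (SE 0.77) rested on reads of 1 EC library, and without that library (EC replicate 2) it was called lower.

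The Foxo1 promoter, shown beside that of Foxp4 as the gene with the next largest EC excess, holds 20 CpG and none of the searched letters.
Foxo1, chr3:52268087-52268336, plus strand: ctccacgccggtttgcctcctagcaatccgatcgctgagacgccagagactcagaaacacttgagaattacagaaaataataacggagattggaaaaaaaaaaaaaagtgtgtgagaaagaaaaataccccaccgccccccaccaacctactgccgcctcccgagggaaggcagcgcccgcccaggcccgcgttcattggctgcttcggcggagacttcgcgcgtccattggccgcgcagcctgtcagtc
Every ATAC library of the 3 groups had a peak on it, and no GATA4 library did. A GATA4 region centred 666 bases upstream of the start (chr3:52267308-52268035) had a peak in 1 of 3 Tie2-Cre and 2 of 3 Tnnt2-Cre libraries. By the rules given below it was neither selective for a lineage nor shared.

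Both FOXC genes were called higher in EC. Foxc1 (chr13:31806646-31810635, plus strand), a single-exon gene mutated in anterior eye segment disorders, had 90.0 and 79.1 CPM in EC and 39.5, 36.6 and 29.3 CPM in CM, a log2 fold change of 1.27 (SE 0.12). Foxc2 (chr8:121116171-121118894, plus strand), known for lymphatic valve formation, had 72.5 and 61.2 CPM in EC and 7.12, 8.31 and 5.52 CPM in CM, a log2 fold change of 3.26 (SE 0.15). For both genes all EC values exceeded all CM values, with adjusted p of 2.4e-06 and 7.5e-09 in edgeR's quasi-likelihood test. The CM level was 41.6% of EC for Foxc1, above every endothelial marker, and 10.4% for Foxc2, inside their range. Cushion mesenchyme markers summed to 852 to 860 CPM in EC and 303 to 364 CPM in CM. All 6 were called higher in EC, with a median CM level of 5.18% of EC (1.29% to 66.6%). Epicardial and fibroblast markers summed to 1228 to 1297 CPM in EC and 515 to 537 CPM in CM. Most of that list ran against its sum: 3 of the 8 were called higher in EC and 5 lower. Its median CM level was 255% of EC. The part of those cells in the FOXC levels was not tested.

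Foxm1, Foxk1, Foxj2 and Foxj3 were called higher in EC, and Foxk2 and Foxj1 were not called. Foxm1, which drives genes of mitosis, had 66.4 and 71.4 CPM in EC and 24.8, 28.9 and 38.3 CPM in CM (log2 fold change 1.17, SE 0.15). Foxk1, a repressor of autophagy genes, had 64.0 and 58.8 CPM in EC and 25.4, 26.5 and 28.5 CPM in CM (1.20, SE 0.09). Its paralog Foxk2 had 87.8 and 83.4 CPM in EC and 75.9, 80.6 and 86.3 CPM in CM, overlapping groups 0.08 apart on the log2 scale (SE 0.08; edgeR's quasi-likelihood test, adjusted p = 0.370). So within FOXK one gene was called and the other was not, and the difference between their fold changes was not tested. Foxj2 had 33.8 and 37.7 CPM in EC and 10.5, 12.2 and 17.5 CPM in CM (log2 fold change 1.41, SE 0.18). Foxj3 had 70.3 and 62.8 CPM in EC and 48.6, 56.2 and 56.8 CPM in CM (0.31, SE 0.09, adjusted p = 0.011, edgeR's quasi-likelihood test), a call that was lost without EC replicate 1 (0.21, adjusted p = 0.130). Foxj1, the master gene of motile cilia, stayed at 0.212 to 0.375 CPM in all libraries and was not called.

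FOXN genes differed in direction. Foxn2 had 40.2 and 41.5 CPM in EC and 34.2, 34.6 and 28.7 CPM in CM, a log2 difference of 0.33 (SE 0.10; edgeR's quasi-likelihood test, adjusted p = 0.012) that was no longer called without EC replicate 2 (0.29, adjusted p = 0.070). Foxn3 (chr12:99195094-99450074, minus strand), a cell cycle checkpoint repressor, had 34.8 and 41.8 CPM in EC and 51.3, 63.0 and 63.9 CPM in CM. All CM values lay above both EC values, and a log2 fold change of -0.63 (SE 0.12; edgeR's quasi-likelihood test, adjusted p = 0.000525) made it the single forkhead gene called lower in EC.

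A few forkhead genes were detected at far lower levels. Foxl1, a mesenchymal forkhead gene of the gut, had 4.32 and 2.44 CPM in EC and 1.23, 0.918 and 0.314 CPM in CM (log2 fold change 2.05, SE 0.45). Foxq1 had 2.02 and 1.58 CPM in EC and 0.083, 0.188 and 0.090 CPM in CM (3.89, SE 0.46). Both were called higher in EC, with adjusted p of 0.0016 and 1.7e-05 in edgeR's quasi-likelihood test. Foxd2os, an antisense-side neighbour of Foxd2, was tested but not called (0.84, SE 0.52). Foxs1 had no read in EC and 25 reads over the 3 CM libraries (0.185 CPM). With 3 reads over both EC libraries taken as a floor (0.060 CPM), its CM level was 3.10-fold that floor. This ratio leaves out the spread of the CM reads, and Foxs1 fell short of the filter and was not in the test. Mural cell markers, beside it, summed to 241 to 246 CPM in EC and 1548 to 1946 CPM in CM. Those 6 markers did not move as one: 1 was called higher in EC and 4 lower. Their CM levels ran from 13.4% to 3145% of EC, with a median of 876%. The part of mural cells in the Foxs1 level was not tested. The other untested genes with reads stayed at or below 0.317 CPM in every library, among them Foxa2, Foxf1 and Foxf2, genes of endoderm and visceral mesenchyme. The 6 foregut and lung epithelium markers summed to 2.44 to 3.08 CPM in EC and 4.47 to 6.54 CPM in CM. Of these, 0 were called higher in EC and 1 lower, and Nkx2-1 and Sftpc had no read in any library.

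Levels per exon length (CPM per kb) allow genes to be set against each other. Summed over all 46 genes they came to 251 and 242 CPM per kb in EC and 110, 122 and 123 in CM. In EC the highest mean levels were those of Foxp1 (36.2 ± 2.2 CPM per kb, SD, n = 2), Foxp4 (28.8 ± 3.02), Foxo1 (28.2 ± 0.155), Foxc2 (24.5 ± 2.95) and Foxc1 (21.2 ± 1.94). In CM they were Foxn3 (22.7 ± 2.69 CPM per kb, SD, n = 3), Foxk2 (16.1 ± 1.04), Foxp1 (15.9 ± 0.450), Foxj3 (11.2 ± 0.960) and Foxo4 (10.1 ± 0.955). The make-up of the subfamilies shifted with it. Foxo1 held 65.4 ± 2.38% (SD, n = 2) of the FOXO level in EC and 7.16 ± 0.562% (SD, n = 3) in CM, where Foxo4 held 55.4% and Foxo3 35.3%. Foxp4 held 40.9 ± 3.77% of the FOXP level in EC and 6.23 ± 0.279% in CM, where Foxp1 held 87.7%. Foxc2 held 53.6 ± 0.714% of the FOXC level in EC and 22.5 ± 2.17% in CM. The ranges of these 3 shares did not overlap between groups, but this was not particular to them. Foxk1 held 32.3% to 33.0% of the FOXK level in EC and 18.2% to 18.4% in CM. Foxj2 held 31.3% to 36.2% of FOXJ in EC and 16.9% to 22.6% in CM. Foxn2 held 33.7% to 37.2% of FOXN in EC and 18.7% to 25.5% in CM.

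**Figure D3:**
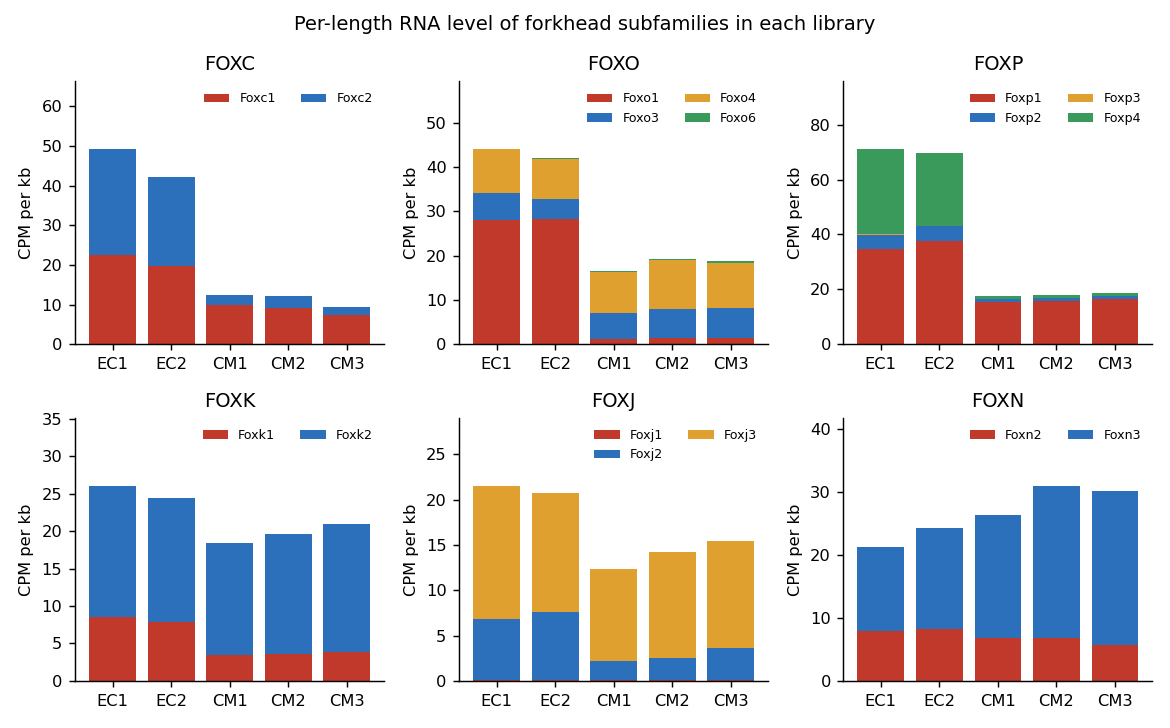
Per-length RNA level (CPM per kb of exon) of 6 forkhead subfamilies in each EC and CM library, stacked by gene. FOXP, FOXO and FOXC columns are taller in EC, through Foxp1 and Foxp4, Foxo1, and both FOXC genes. The FOXK and FOXJ columns are also taller in EC, by less, while the FOXN columns are taller in CM.

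Genes that work with or under forkhead factors were read from lists, whose counts stand beside 37.5% higher and 40.2% lower over all genes tested and a median of -0.06. The list of FOXC and FOX-ETS vascular genes leaned to EC, with 17 of 22 tested genes higher, 4 lower and a median log2 fold change of 2.09. Those with the smallest adjusted p at 20 CPM or more were Cdh5 (3.78, SE 0.10), Notch1 (3.34, SE 0.07) and Kdr (2.66, SE 0.07), and the 4 against were the Notch effector Hey2 (-2.83), the lymphatic regulator Prox1 (-1.84), Pdpn (-2.26) and the chemokine Cxcl12 (-4.77). Several of these genes are endothelial markers as well. Hedgehog and FOXF genes had 9 of 10 tested higher, 0 lower and a median of 1.72, for example the hedgehog effectors Gli3 (67.7 and 74.8 CPM in EC; 9.53, 10.3 and 9.56 in CM; 2.86, SE 0.09), Smo (1.33, SE 0.09) and the receptor Ptch1 (0.86, SE 0.17). FOXP partners and linked cardiac genes had 6 of 12 tested higher, with the histone deacetylase gene Hdac1 (1.82, SE 0.09) among them, and 1 lower, the cardiac factor Nkx2-5 (-5.79, SE 0.15). When any 1 library was left out, that lower count became 2.

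FOXO target genes were called in both directions, with 15 of 26 higher, 10 lower and a median of 0.31 (all genes tested: 37.5% higher, 40.2% lower). Klf4 (2.97, SE 0.08), Klf2 (3.20, SE 0.09) and Nos3 (2.79, SE 0.09), genes of flow-exposed endothelium, were higher in EC. Lower in EC were the muscle ubiquitin ligases Trim63 (0.673 and 1.58 CPM in EC; 122, 138 and 164 in CM; -7.03) and Fbxo32 (-2.97), the antioxidant genes Sod2 (-2.83) and Prdx3 (-0.99), the kinase gene Pdk4 (-0.84), the stress gene Gadd45b (-2.60), and also Eif4ebp1 (-1.67), Rictor (-1.31), Sesn1 (-0.52) and Cdkn1b (-0.29). Upstream of FOXO, 8 of 22 genes were higher and 12 lower, with a median of -0.26. The 8 were mostly 14-3-3 proteins, which bind phosphorylated FOXO: Ywhae (2.09), Ywhab (2.08), Ywhaz (1.81), Ywhag (0.72) and Ywhah (0.71), with the kinases Sgk1 (1.93) and Akt1 (0.82) and the adaptor Irs2 (1.03). FOXM1 target genes had 7 of 21 higher, 11 lower and a median of -0.21, with the share of higher calls close to that of all genes. Bub1b (-1.49, SE 0.07) and Aurka (-1.11, SE 0.07), both of mitosis, were lower in EC, and Skp2 (1.28), Plk1 (1.14), Ccnf (1.04), Cdc25b (0.67), Cks1b (0.58), Tpx2 (0.53) and Aurkb (0.23, not called without EC replicate 1) higher.

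Further lists were tied to FOXK, FOXH1 and FOXJ1. FOXK partners had 3 of 8 higher, among them Gsk3b (1.37) and Hcfc1 (1.13), and 3 lower, Asxl2 (-0.99), Mtor (-0.87) and Ogt (-0.52), which is near the shares over all genes tested (37.5% and 40.2%). FOXH1 and nodal genes had 1 of 8 tested higher, Smad4 (0.34), and 6 lower, among them the receptors Acvr2a (-0.94) and Acvr1b (-0.49). FOXJ1 motile cilium genes had 0 of 7 tested higher and 3 lower at a median of -0.17, and without EC replicate 2 they had 1 higher and 5 lower.

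GATA4 peaks were merged over the 6 libraries into 49798 regions. A region was called selective for a lineage with a peak in at least 2 of its 3 libraries and 0 of the other lineage, and shared when both lineages reached that number. The windows of the 46 forkhead genes held 164 regions, at 44 genes. Tie2-Cre-selective regions made up 12 of them (7.32%, against 12.2% of all regions) and Tnnt2-Cre-selective regions 25 (15.2%, against 18.2%). A further 20 were shared (12.2%, against 13.1%), and 107 fell in none of these classes. The second library of each lineage was short, with 2734 and 3603 peaks against 17682 to 30447 in the others, so the classes rest mostly on replicates 1 and 3. Without Tie2-Cre replicate 1 or 3 only 1 Tie2-Cre-selective region was left, and without Tnnt2-Cre replicate 1 or 3 there were 5 and 3 Tnnt2-Cre-selective regions. Leaving out any 1 of those 4 libraries cut the shared regions to 4.

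The share of a library's GATA4 peaks that fell at forkhead genes was 0.283%, 0.183% and 0.339% in the Tie2-Cre libraries and 0.329%, 0.305% and 0.345% in the Tnnt2-Cre libraries. The groups overlapped, and the difference of -0.058 percentage points had an exact two-sided permutation p of 0.3 (n = 3 and 3, smallest possible 0.1). By gene, 9 of the 46 (19.6%) had a Tie2-Cre-selective region and 18 (39.1%) a Tnnt2-Cre-selective one, against 28.2% and 39.2% of 24101 genes measured the same way.

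**Figure D4:**
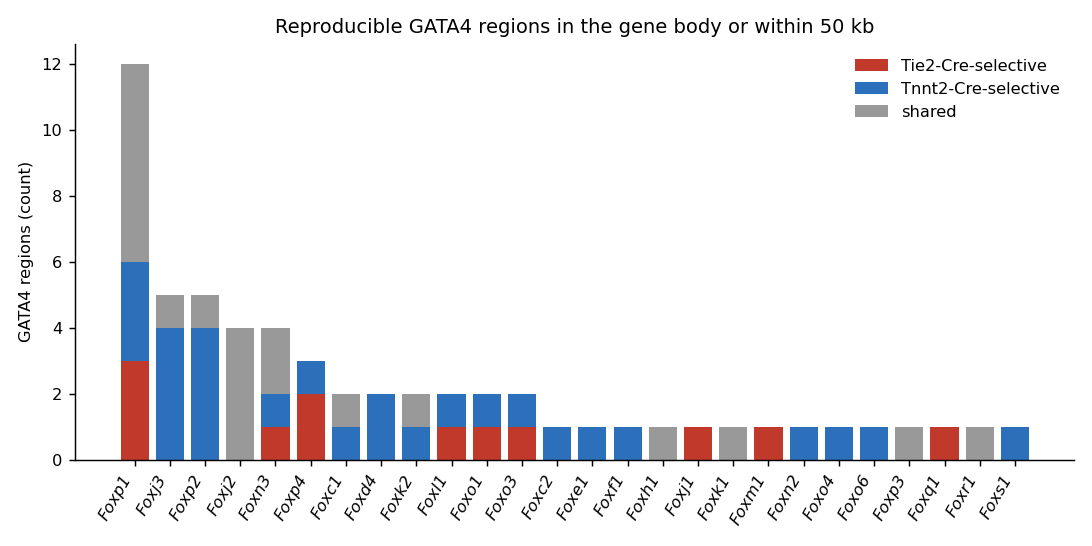
Number of reproducible GATA4 regions (here selective or shared) in the gene body or within 50 kb for each forkhead gene with at least 1, stacked by class. Foxp1 carries 12, and Foxj3 and Foxp2 are mostly Tnnt2-Cre-selective. Counts are not scaled to the length of the window.

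Foxp1, whose gene body spans 510004 bases, held the most selective and shared regions: 3 Tie2-Cre-selective, 3 Tnnt2-Cre-selective and 6 shared. With GATA4 regions of every class counted, Foxp1 had 3.28 per 100 kb of window, below the median of 3.74 over the 17 genes above 1 CPM. Its Tie2-Cre-selective regions were chr6:99389146-99389677 and chr6:99094601-99094928, both intronic and open in EC, and chr6:98878752-98879051, beyond the gene's end and not open. Its Tnnt2-Cre-selective regions, chr6:99235718-99235998, chr6:99058655-99058980 and chr6:99350145-99350570, were all intronic and all open in EC. Among the shared regions, those ranking highest by peak signal were chr6:99200401-99200941, chr6:99451275-99452128 (upstream of the start) and chr6:99193726-99194066. One shared region, chr6:99173098-99173604, named after its values were seen, had a peak in all 6 libraries. Both classes of selective region were thus spread through the body of one gene that was expressed in both cell types.

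**Figure D5:**
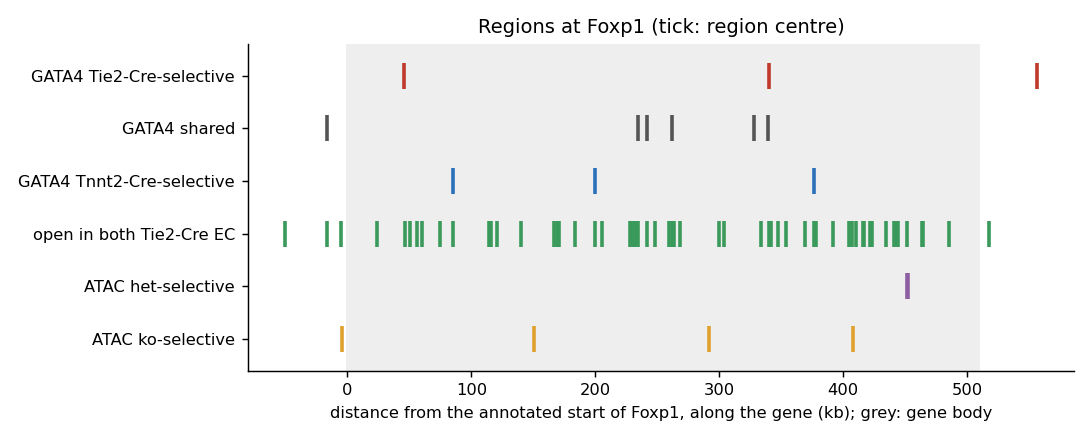
Positions of GATA4 and ATAC regions along Foxp1, as distance in kb from the start annotated in the count table with that gene body in grey and 1 tick per region centre. GATA4 regions of all 3 classes occur within the gene body, among 61 regions open in both Tie2Cre EC libraries in the gene's window.

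At Foxp4, a gene with a large EC excess, 2 regions were Tie2-Cre-selective: chr17:47955169-47955684, centred 30794 bases upstream of the start with a peak in 3 of 3 Tie2-Cre libraries, and the intronic chr17:47887140-47887649. The upstream region was the single one at forkhead genes that stayed Tie2-Cre-selective when 3 of 3 libraries were required. A Tnnt2-Cre-selective region, chr17:47850044-47850440, lay beyond the gene's end and was not open in EC. Foxo1, with a similar EC excess, had 1 Tie2-Cre-selective region in an exon, chr3:52347131-52347362, and 1 Tnnt2-Cre-selective region 49149 bases upstream, chr3:52218972-52219405. Both were open in EC.

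Foxp2, also higher in EC, had no Tie2-Cre-selective region but 4 Tnnt2-Cre-selective ones and 1 shared (chr6:15257278-15257802). Its gene body spans 540629 bases, and with every class counted it had 0.937 GATA4 regions per 100 kb of window. Of those 4, chr6:15242105-15242856 in an intron and chr6:15413749-15414065 over an exon had peaks in 3 of 3 Tnnt2-Cre libraries, and another, chr6:15411820-15412305, ranked highest by signal. Foxj3 likewise had 4 Tnnt2-Cre-selective regions, the strongest of them chr4:119627348-119627627, chr4:119661889-119662301 and chr4:119632696-119633110, and 1 shared region, chr4:119512447-119513400. All 3 of these Foxj3 regions lay nearer to the start of Guca2a or Guca2b than to its own. Foxj2 had 4 shared regions and no selective one, with chr6:122855729-122856377 (at the start of C3ar1), chr6:122804480-122804922 and chr6:122811085-122811604 the strongest.

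Foxn3, the gene called lower in EC, had 1 Tie2-Cre-selective (chr12:99406943-99407262), 1 Tnnt2-Cre-selective (chr12:99386074-99386443) and 2 shared regions, all intronic. One of the shared regions, chr12:99257522-99258112, had a peak in all 6 libraries. Foxc1 had 1 Tnnt2-Cre-selective region 12948 bases upstream (chr13:31793536-31793860) and 1 shared region in an intron of the neighbouring gene Gmds (chr13:31820768-31821625). Foxc2 had a Tnnt2-Cre-selective region in an intron of Mthfsd (chr8:121103967-121104205), which also falls in the windows of Foxf1 and Foxl1. Foxo3 had 1 of each selective class, Tie2-Cre-selective at chr10:42313329-42313760 and Tnnt2-Cre-selective at chr10:42199513-42199838.

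The other genes above 10 CPM had few. Foxk1 had 1 shared region (chr5:142416140-142416725), and Foxk2 had 1 shared (chr11:121282655-121283375) and 1 Tnnt2-Cre-selective (chr11:121232707-121232919). Foxo4 had 1 Tnnt2-Cre-selective region (chrX:101287655-101287876), in an intron of Med12. The Tie2-Cre-selective region counted for Foxm1 (chr6:128424728-128424993) lay 50 bases from the start of Itfg2, and the Tnnt2-Cre-selective one counted for Foxn2 (chr17:88530155-88530538) 222 bases from the start of Ppp1r21. Such regions are assigned by distance alone, and which gene they act on was not measured. Below 1 CPM, Foxj1 had a Tie2-Cre-selective region, and Foxd4 (2), Foxe1, Foxf1, Foxo6 and Foxs1 had Tnnt2-Cre-selective ones. Foxq1 and Foxl1, between 1 and 10 CPM, had 1 Tie2-Cre-selective region each.

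The RNA calls were counted by the selective GATA4 regions at each gene, beside 37.5% higher and 40.2% lower over all genes tested. Of 3 genes with Tie2-Cre-selective regions alone (Foxj1, Foxm1, Foxq1), 2 were higher in EC. Of 12 with Tnnt2-Cre-selective regions alone, 5 were higher in EC (Foxc1, Foxc2, Foxj3, Foxn2, Foxp2), 3 were not called and 4 were not tested. Of 6 with both, 4 were higher, 1 lower and 1 not called. Of 25 with neither, 3 were higher, 1 was not called and 21 were not tested, so genes without a selective region were also called higher.

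Chromatin open in both Tie2Cre EC libraries made 101038 regions, of which 485 (0.480%) lay at forkhead genes, at 45 of the 46, Foxi2 being without. Foxp1 had 61, Foxk1 28, Foxp4 and Foxn3 25 each, Foxl1 22 and Foxc2 21. Per 100 kb of window this was 10.0 for Foxp1, 17.4 for Foxk1, 15.9 for Foxp4 and 7.04 for Foxn3. It was 21.4 for Foxl1 and 20.4 for Foxc2, against a median of 9.74 over the 17 genes above 1 CPM. Of the 485 regions, 43 fell in more than 1 window, many of them in those of the neighbours Foxf1, Foxc2 and Foxl1. Of the GATA4 regions at forkhead genes, an EC open region overlapped 11 of the 12 selective for Tie2-Cre (91.7%, against 88.5% of all such regions) and 18 of the 25 selective for Tnnt2-Cre (72.0%, against 41.9%). For shared regions it was 19 of 20 (95.0%, against 94.1%). The gap for the Tnnt2-Cre-selective class rests on 25 regions, several of which share a gene, and was not tested. ATAC of cardiomyocytes was not analysed here.

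Forkhead starts were often open in EC also where the gene was nearly silent. Within 1 kb of the annotated start, 15 of 17 forkhead genes above 1 CPM (88.2%) and 21 of 29 below it (72.4%) had open chromatin, against 94.1% and 32.3% of all genes in the same 2 classes. The open regions at the 21 low genes had a median width of 1708 bp (441 to 2941 bp), against 1029 bp at all low genes with an open start. Those at the 15 expressed genes had a median of 2861 bp (1825 to 5256 bp), against 1737 bp at all expressed genes with an open start. The 21 are not all separate starts. Foxd2 and Foxd2os share their widest region (2806 bp), Foxl2 and Foxl2os share theirs (2941 bp), and that of Foxa3 also covers the start of Sympk. The low genes with an open start include Foxa1, Foxa2, Foxd1, Foxd3, Foxf1 and Foxf2, factors of endoderm, neural crest and mesenchyme. In the Cdh5-labelled cells, by a different rule, 13 of the 29 low genes had a region present in at least 2 of 3 Gata4het and 2 of 3 Gata4ko libraries. Foxd1 and Foxf1 were among the 13, while Foxa1, Foxa2, Foxd3 and Foxf2 were not. The share over all low genes by this rule is not given here, so the 13 cannot be set against it. Closed starts among expressed genes were those of Foxp1, whose RefSeq starts shown above are open, and Foxn3, whose listed start has only 5 CpG in its promoter. CpG content moved with opening: the 19 forkhead promoters with a peak in both Tie2Cre EC libraries held a median of 22 CpG (3 to 48), and the 12 with a peak in neither held 6 (3 to 17). The part of CpG content in the open starts was not tested.

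No forkhead gene had a selective or shared GATA4 region within 1 kb of its start, while 20.2% of all genes above 1 CPM and 3.59% of those below had one. Regions outside these classes were there: 9 of the 17 expressed genes (52.9%) had a region with a peak in at least 1 library. Over all such genes, with regions of any class counted, it was 55.8%. Foxj3, Foxo1, Foxm1 and Foxn2 each had such a region with a peak in 1 of 3 Tie2-Cre and 2 of 3 Tnnt2-Cre libraries. These 4 reached the number needed in Tnnt2-Cre and were left unclassed because of the Tie2-Cre peak. At Foxj3 those peaks lay on the RefSeq promoter itself, and its sequence is shown for that reason. It holds 34 CpG and none of the searched letters.
Foxj3, chr4:119539411-119539660, plus strand: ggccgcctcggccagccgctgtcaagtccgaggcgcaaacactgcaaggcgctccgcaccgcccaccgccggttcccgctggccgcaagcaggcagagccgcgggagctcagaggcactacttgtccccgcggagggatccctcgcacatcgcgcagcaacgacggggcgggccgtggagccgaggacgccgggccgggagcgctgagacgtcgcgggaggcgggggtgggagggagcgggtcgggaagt
Over the 29 forkhead genes with a RefSeq promoter (34 promoters of 250 bases; 17 genes had none in the table), 3 promoters (8.82%) held AGATAA or TGATAA, at Foxa2 and Foxp3, against 16.6% of all promoters. GTAAACA was in 1 (2.94%, at Foxa1, against 3.17%) and ATAAACA in 3 (8.82%, at Foxp1 and Foxp3, against 4.16%). Both strands were searched, and the last pair of motifs differ in their first letter and cannot match at one place.

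Between Gata4het and Gata4ko endothelial cells, 566 of 128146 merged ATAC regions lay at forkhead genes, and 270 of them were shared. By the same rule of at least 2 of 3 against 0 of 3, 20 (3.53%) were het-selective and 16 (2.83%) ko-selective, against 3.05% and 1.72% of all regions. The share of a library's peaks at forkhead genes was 0.432%, 0.468% and 0.454% in Gata4het and 0.443%, 0.471% and 0.524% in Gata4ko. These overlapped, and the difference of -0.028 percentage points had an exact two-sided permutation p of 0.4 (n = 3 and 3, smallest possible 0.1). The library with the highest share, Gata4ko replicate 4, had the shortest list, 55733 peaks.

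The selective regions were spread over expressed and nearly silent forkhead genes. Foxp1 had 2 het-selective regions, close together in intronic sequence (chr6:98983107-98983555 and chr6:98982424-98982931), and 4 ko-selective ones. These were led by chr6:99439246-99439494, 4025 bases upstream of the start in the count table but downstream of RefSeq start 1. Foxn2 had 2 het-selective (chr17:88505243-88505700 and chr17:88460060-88460298) and 1 ko-selective region (chr17:88405017-88405309). Foxj3 had 1 ko-selective region, over an exon (chr4:119626111-119626493). Foxo1 (chr3:52322459-52322769) and Foxp4 (chr17:47947262-47947664) had 1 het-selective region each, neither on a GATA4 region of a selective class. Foxn3 had 1 of each class, het-selective at chr12:99299044-99299474 and ko-selective at chr12:99458200-99458536. At Foxp2 a het-selective region, chr6:15413766-15414022, fell inside the Tnnt2-Cre-selective GATA4 region over its exon. At Foxo3 a ko-selective region, chr10:42199675-42199907, overlapped the Tnnt2-Cre-selective GATA4 region named above. The single selective ATAC region over a Tie2-Cre GATA4 region of at least 2 libraries was het-selective and at Foxj1 (chr11:116369695-116370051), in an intron of Rnf157. Foxa2, at no more than 0.091 CPM in any RNA library, had 4 het-selective regions, the most of any forkhead gene, and 1 of them (chr2:148013419-148013865) was present in 3 of 3 Gata4het libraries. These counts moved with single libraries: without one or another library there were 6 to 40 het-selective and 5 to 26 ko-selective regions.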

How the data were processed

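RNA reads per gene were deposited by the authors as raw counts, and peaks as lists with a fold over background and -log10 p and q values per peak, per the file headers. The counts were made with featureCounts 1.6.3 on mm10 gene models in a strand-specific mode, per the file headers. The submitters' processing notes also name Bowtie 1.1.1, Bowtie2 2.2.9, STAR 2.7.3a, MACS2 2.2.4 and deepTools 3.3.1, without saying which made which file. Files of 19 of the 21 samples were used. The counts were fitted with edgeR 4.0.16 (TMM scaling, low-count filter, quasi-likelihood test, Benjamini-Hochberg adjustment over 14851 genes, threshold 0.05), and DESeq2 1.42.0 was an alternative. On simulated counts for 14851 genes, 78.8% of genes changed 2-fold were recovered. Only a small part of the genes was changed there, while in the data 37.5% were called higher in EC and 40.2% lower. The recovery rate may therefore not hold for this comparison. CPM use TMM-scaled library sizes. Peaks sharing at least 1 bp were merged, and presence per library was the measure. Peak lists give no read depth, so absence of a peak may reflect depth, which is unknown. Distances run to region centres, and introns and exons follow the count table's gene models.

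The forkhead genes, pathway lists and markers were chosen with earlier results of these data known. Genes with a mean of at least 1 CPM were named with every library. From each list up to 3 called genes with the smallest adjusted p and at least 20 CPM, and called genes against the list's majority, were named. Regions were named for genes with at least 10 CPM, up to 3 per class by peak rank. The planned protein comparison was not made, since no protein sequences were used here. Other scalings, filters, windows, peak thresholds, list lengths, overlaps and left-out libraries were tried. Some results that the rules would name are not reported here.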

Additional observations from a re-analysis of the deposited data

How the results depend on the processing

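None of the 21 tested forkhead genes changed direction under the scalings, filters, tools and left-out libraries run. The 14 higher calls ranged from 11 (test against a 2-fold change) to 15 (no filter). The single lower call became 3 without the filter, 0 against a 2-fold change, and 1 to 2 with 1 library left out. Against a 2-fold change, all genes gave 2569 higher and 2675 lower and the pathway lists 36 and 17 (from 66 and 50). Foxj3, Foxn2, Foxm1 and Foxn3 were not called in that test. With the replicate number as a block the forkhead calls were 14 higher and 1 lower, as without it. The numbers are not said to pair libraries, and same-numbered RNA libraries had correlations of -0.009 and -0.004 in their deviations. For peak shares, exact sign-flips of same-numbered differences left -0.058 (GATA4) and -0.028 percentage points (ATAC), each with p = 0.25, the smallest possible.

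Region counts depended on windows and list lengths. Tie2-Cre-selective regions numbered 6 within 20 kb, 28 within 100 kb, 4 with lists of equal length, 1 when 3 of 3 libraries were required, and 1 to 16 with 1 library left out. Tnnt2-Cre-selective regions numbered 3 with equal lengths, 4 with 3 of 3, and 3 to 37 with 1 left out. Shared regions numbered 32 within 100 kb, 1 with equal lengths, 8 when a peak had to cover 0.5 of its region, 2 with 3 of 3, and 4 to 20 with 1 left out. The GATA4 share difference reversed to 0.024 percentage points with equal lengths; the cause was not tested. Het-selective regions numbered 13 within 20 kb, 7 at a -log10 q of at least 5, 5 with equal lengths, 2 with 3 of 3, and 6 to 40 with 1 left out, and ko-selective regions 6 at that q, 3 with 3 of 3, and 5 to 26. Regions shared by Gata4het and Gata4ko numbered 172 within 20 kb and 433 within 100 kb, and EC open regions 729 within 100 kb.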
